A study of Rattus norvegicus with 6 samples.

Results

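Hedgehog signalling was followed in NRK-52E cells, an established epithelial line from rat kidney, through 9 genes of its core: Gli1, Gli2, Gli3, Ptch1, Smo, Sufu, Hhip, Gas1 and Boc. The genes were taken by symbol from the deposited table of raw counts, in which 7 of the 9 were found among 18930 rows. Hhip and Gas1 were not analysed here. The study compared wild-type cells given streptozotocin (STZ), a glucose-linked alkylating agent, at 10 mM for 24 h (STZ, n = 3) with cells given vehicle (Control, n = 3). All 6 samples came from the same cell line, and whether replicates were separate cultures is not stated, so the errors below measure only the spread between these samples. Total counts per sample ranged from 10430924 to 15191349. Levels are given as CPM, the number of reads scaled to a common library total, after TMM scaling of the libraries. STZ and Control were compared in a single edgeR quasi-likelihood fit to the 11870 genes that passed the filter on low counts. "Fell" and "rose" stand for an adjusted p-value under 0.05 in that test, and "differentially expressed" also requires an absolute log2 fold change over 1.

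Hedgehog ligands are secreted, cholesterol-bearing proteins that bind the receptor Ptch1. Without ligand, Ptch1 holds back Smo, a membrane protein that is activated by sterols and acts at the primary cilium. Active Smo releases the GLI transcription factors from their inhibitor Sufu. GLI proteins then switch on target genes, among them Gli1 and Ptch1 themselves, so both transcripts are widely used as readouts of the pathway. In the kidney, the ligands come mainly from tubular epithelium and the response is best known in the surrounding stromal cells.

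GLI proteins bind the 9-base motif GACCACCCA, and RefSeq promoter sequences (rat build GRCr8, 250 bases before to 50 bases after the gene start) were searched for it on both strands. Sequences were found for 7 of the 9 members, with none for Gli1 and Gas1. Of these 7 windows, 1 held an exact match, that of Ptch1, and the same window was the only 1 of the 7 with a match when 1 mismatch was allowed. Among all 33469 promoter windows of this length, 0.385% held an exact match and 7.33% a match with at most 1 mismatch. The Ptch1 window lies at chr17:1555321-1555620 on the plus strand of GRCr8. It is printed below because it is the member window with the letters that GLI proteins are known to bind. The match is in capitals, reads as the reverse complement and runs from 172 to 164 bases before the gene start.
Ptch1: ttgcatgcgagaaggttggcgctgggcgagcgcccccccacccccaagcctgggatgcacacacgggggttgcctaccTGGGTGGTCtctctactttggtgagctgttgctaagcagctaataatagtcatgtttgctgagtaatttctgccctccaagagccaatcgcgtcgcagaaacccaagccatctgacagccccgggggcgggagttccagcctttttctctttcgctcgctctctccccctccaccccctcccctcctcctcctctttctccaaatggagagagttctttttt
The match is a description of the sequence, since no binding was measured. The absence of a match in the other 6 windows says only that these letters do not occur there. The GC content of the 7 windows was between 47.7% in Boc and 72.0% in Gli3, with a median of 51.7% over all windows.

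The label of the cells was checked against marker genes. Of 8 epithelial markers, 5 had a row. The cytoskeletal keratin Krt8 and the junction protein Tjp1 were abundant, Cdh1 (E-cadherin) had 16 to 35 reads, and Krt18 and Cdh16 never exceeded 4 reads. Of 8 proximal tubule markers with a row, 7 had at most 10 reads in every sample, and Aqp1, a water channel, was the exception with 66 to 167. Among 8 fibroblast and pericyte markers with a row, 4 were tested and 4 had at most 10 reads in every sample. The 4 endothelial markers were all at 10 reads or fewer in every sample, as were 3 of the 4 leukocyte markers. Near-empty rows, such as Krt18 beside Krt8 with 11691 to 24040 reads, are not read as absent expression. How reads were assigned to such rows was not tested.

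All 7 genes tested had lower mean levels in STZ-treated cells, and 6 of them fell, against 25.1% of all genes tested that fell and 25.9% that rose. The set was chosen by way of the low Gli1 and Ptch1 levels seen earlier in this same contrast, so these values are a description, nothing is read from the counts and no p-values are given for the members. The median log2 fold change of the 7 was -0.52, beside -0.01 over all genes tested. In 6 of the 7, every STZ sample lay under every Control sample, a pattern that 27.7% of all genes tested showed in this direction and 28.6% in the other. As these are bulk samples, fewer cells of a kind and less RNA per cell cannot be told apart.

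**Figure D1:**
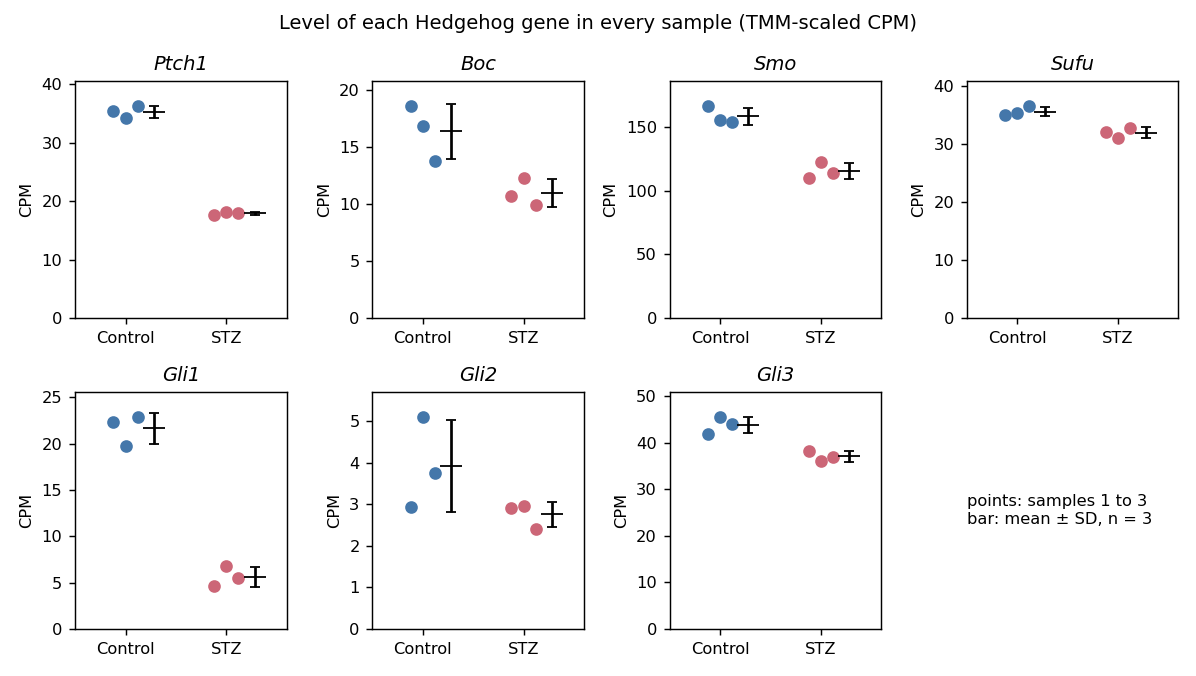
Level of each of the 7 Hedgehog genes in every sample, in TMM-scaled CPM on linear axes that start at 0. Points are the 3 samples of Control and of STZ, and the bar beside them is the mean ± SD (n = 3). The groups are separate in every panel except Gli2, and the gap is widest relative to the Control level in Gli1 and Ptch1.

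Of the receptors, Ptch1, which binds the ligand and restrains Smo, had 35.4, 34.2 and 36.2 CPM in Control samples 1 to 3 and 17.6, 18.2 and 18.0 CPM in STZ samples 1 to 3, the order used throughout. The 3 STZ samples were close to each other, with a level 50.9% of the Control mean. The log2 fold change of Ptch1 was -0.98 (standard error, SE, 0.08), which is just short of the fold-change threshold, and Ptch1 was therefore not differentially expressed. With library size alone as the scaling it was -1.01 and passed. Of all genes tested, 1.2% had a lower log2 fold change than Ptch1. Boc, a co-receptor that helps to present the ligand, had 18.6, 16.8 and 13.8 CPM in Control and 10.7, 12.3 and 9.94 CPM in STZ. Its groups did not overlap, but the lowest Control and the highest STZ sample were near each other. The log2 fold change of Boc was -0.58 (standard error 0.11).

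Smo, the signal transducer, had 165.8, 155.1 and 153.8 CPM in Control and 109.6, 122.0 and 113.8 CPM in STZ. All 3 STZ samples lay well under the Control samples, and the mean was 72.8% of that in Control. The log2 fold change was -0.46 (standard error 0.05). Sufu, the inhibitor that retains GLI proteins, had 35.0, 35.3 and 36.5 CPM in Control and 32.1, 31.0 and 32.8 CPM in STZ. The groups of Sufu were narrow and did not overlap, yet its log2 fold change of -0.15 (standard error 0.07) did not pass the test. It passed with library size only (-0.19), with the upper quartile (-0.17) and in the likelihood ratio test (-0.15). The direction of all 7 members was lower under every scaling tried.

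Of the 3 GLI factors, Gli1, the activator that is itself a target of the pathway, had 22.3, 19.7 and 22.8 CPM in Control and 4.65, 6.78 and 5.47 CPM in STZ. The groups were far apart, and the STZ mean was 26.0% of the Control mean, 3.88-fold lower by the fitted value. The log2 fold change of Gli1 was -1.96 (standard error 0.12). It was the only member that was differentially expressed, against 1.11% of all genes tested that were so in this direction. Only 4 of the 11870 genes tested had a lower log2 fold change. Gli1 reads numbered 217 to 293 in the Control samples and 64 to 82 in the STZ samples. Its span in GRCr8 overlaps that of Arhgap9, which had 6 to 8 reads in Control samples, had 9 to 15 in STZ samples and did not pass the filter. The kit preserves strand, but whether featureCounts used it is not stated, so how reads in a shared stretch were counted is not known. Reads were counted on Rnor6, where this overlap was not checked. Gli3, which acts mainly as a repressor when the pathway is off, had 42.0, 45.5 and 43.9 CPM in Control and 38.2, 36.0 and 36.9 CPM in STZ. Its groups did not overlap and were separated by a narrow gap. The log2 fold change of Gli3 was -0.24 (standard error 0.06). Gli2, the main activator of the first response, was the member with the fewest reads, 31 to 56 in Control samples and 34 to 40 in STZ samples. It had 2.92, 5.09 and 3.74 CPM in Control and 2.91, 2.95 and 2.40 CPM in STZ. Control replicate 1 lay within the range of the STZ samples, so the groups overlapped. The log2 fold change was -0.52 (standard error 0.22), and the fall of Gli2 was not kept under DESeq2 or limma-voom. It was also lost without Control replicate 2 (-0.30), Control replicate 3 (-0.56), STZ replicate 1 (-0.56), STZ replicate 2 (-0.56) or STZ replicate 3 (-0.42).

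**Figure D2:**
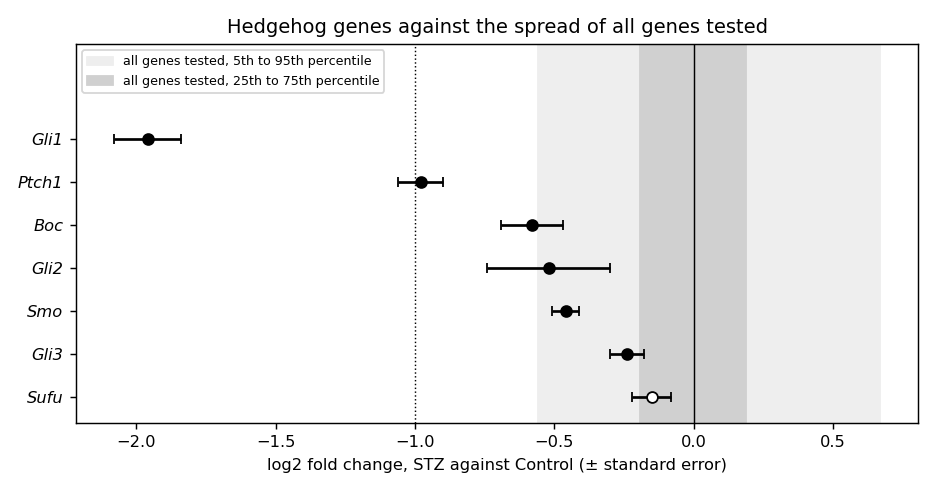
Log2 fold change of the 7 Hedgehog genes, STZ against Control, with its standard error; filled points passed the test and the open point, Sufu, did not. The shaded bands give the spread of all 11870 genes tested, and the dotted line marks a log2 fold change of -1, which Gli1 passed at -1.96 and Ptch1 reached to -0.98.

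The spread between replicates differed among the members. In Control, the coefficient of variation of the CPM was between 2.26% in Sufu and 27.95% in Gli2. In STZ, it was lowest in Ptch1 at 1.65% and highest in Gli1 at 19.0%. Counting error alone would give about 6.45% for Ptch1 and 11.6% for Gli1 in STZ, from the mean number of reads. Among these samples, those of Ptch1 were closer together than counting error gives on average, and those of Gli1 were further apart. Each coefficient of variation rests on 3 samples and is itself imprecise, so a difference in spread between genes cannot be read from it and was not tested.

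Ratios between genes within a sample do not depend on the scaling of the libraries. Gli1 had 63.2, 57.7 and 63.1 reads per 100 Ptch1 reads in Control, against 26.4, 37.3 and 30.4 in STZ. Every STZ sample was under every Control sample, as Gli1 reads were lower in STZ by more than Ptch1 reads were. Ptch1 had 21.3, 22.04 and 23.5 reads per 100 Smo reads in Control and 16.0, 14.9 and 15.8 in STZ. Here too the groups were separate, with a smaller gap. Gli1 made up 33.2%, 28.1% and 32.4% of the summed Gli1, Gli2 and Gli3 reads in Control and 10.2%, 14.8% and 12.2% in STZ. The highest STZ share, 14.8%, had a 95% Wilson interval of 12.05% to 18.1%, and the lowest Control share, 28.1%, one of 25.02% to 31.3%. These intervals cover counting error only. The share of Gli3 was 62.3% to 64.7% in Control and 78.7% to 83.5% in STZ, while that of Gli2 overlapped between the groups, at 4.35% to 7.24% and 5.37% to 6.46%. The shares are parts of a whole, so a lower share of Gli1 by itself raises the others. The higher share of Gli3 is no gain of Gli3, whose own level fell (log2 fold change -0.24). The genes differ in length, so the shares describe reads and not molecules, and levels of different genes were not ranked against each other.

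**Figure D3:**
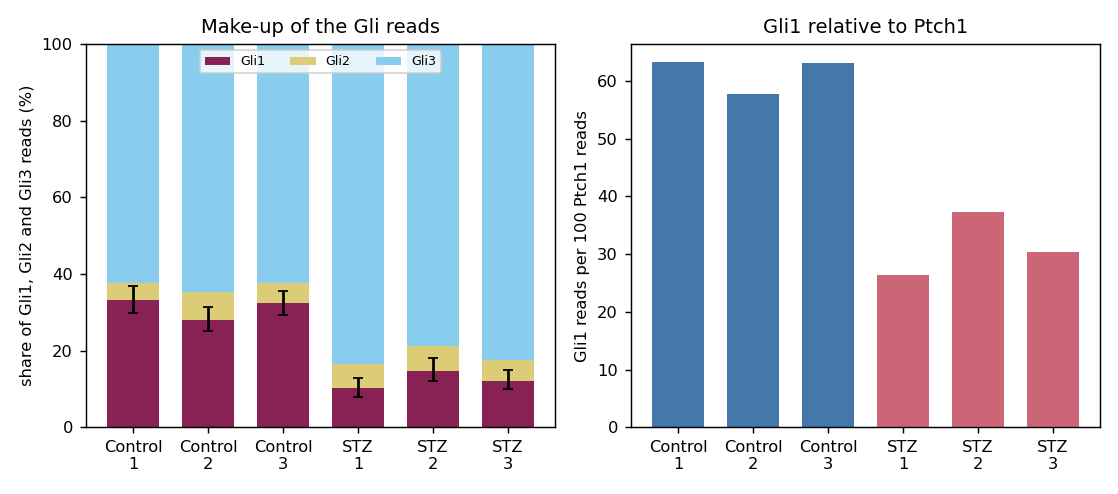
Left, share of Gli1, Gli2 and Gli3 among the summed reads of the 3 genes in each sample, in percent, with the 95% Wilson interval of the Gli1 share. Right, Gli1 reads per 100 Ptch1 reads in each sample; the 3 Control bars lie between 57.7 and 63.2 and the 3 STZ bars between 26.4 and 37.3.

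The genes with the pattern most like that of Gli1 were sought by the Pearson correlation of log2 CPM over the 6 samples, among 9749 other genes that have a symbol and average 50 or more normalized counts. The 5 highest were Ppp5c (a protein phosphatase, r = 0.9993), Maz (a zinc-finger transcription factor, 0.9988), Acaca (the first enzyme of fatty acid synthesis, 0.9981), Samd1 (0.9979) and Thbs3 (a thrombospondin, 0.9978). Their log2 fold changes, -0.32, -0.56, -0.72, -0.81 and -0.39, were all smaller in size than that of Gli1. Among the members, Ptch1 ranked 61st with r = 0.991 and Smo 84th with r = 0.989, while r was 0.896 for Sufu, 0.889 for Boc and 0.886 for Gli3. The 6 points share their libraries and the difference between the groups, and any gene that separates the groups with little spread scores highly, so the values are a description.

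The ligands with a row had few reads. Ihh never exceeded 2 reads, and Dhh had 1 to 7 reads in Control samples and 5 to 7 in STZ samples, so neither was tested and no change could be assessed from these counts. As with the near-empty marker rows, these rows are not read as absent expression, and how reads were assigned to them was not tested. Shh was not analysed here. Of the genes that attach lipid to the ligand or release it, Hhat, Disp1, Scube1 and Scube3 were tested. Scube3, a secreted protein of the family that carries the ligand away from the cell, rose, with 4.05, 2.82 and 3.43 CPM in Control and 5.45, 5.39 and 5.004 CPM in STZ. Its log2 fold change was 0.62 (SE 0.18, edgeR adjusted p = 0.00446).

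Of 6 other receptors and co-receptors, 4 were tested and 2 fell, where 50.9% of all genes tested were called in either direction. Gpc6, a glypican, is a cell-surface proteoglycan that can act on Hedgehog signals. It had 44.0, 50.01 and 48.5 CPM in Control and 31.1, 33.9 and 30.2 CPM in STZ, with a log2 fold change of -0.59 (SE 0.07, edgeR adjusted p = 7.7e-10). The related Gpc4 had a log2 fold change of -0.18 (SE 0.04, edgeR adjusted p = 2.8e-04).

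Of 25 intracellular regulators, 24 were tested, and 8 fell and 5 rose, a called share of 54.2% beside 50.9% of all genes tested. None was differentially expressed, while 3.37% of all genes tested were. The median log2 fold change was -0.07. The largest falls were those of Arrb2, an arrestin that takes part in Smo signalling (log2 fold change -0.54, standard error 0.10), Ulk3, a kinase that acts on GLI proteins (-0.40, 0.12), and Efcab7, which anchors a ciliary complex that relays Smo activity (-0.38, 0.10). The largest rises were those of Btrc, a ubiquitin ligase subunit for GLI processing (0.25, 0.06), Kif7, a ciliary kinesin that regulates GLI proteins (0.24, 0.09), and Prkar1a, a regulatory subunit of protein kinase A (0.18, 0.04). In each of these 6 genes the groups did not overlap, as in 56.3% of all genes tested in either direction. The 6 were picked for their size of change among genes that passed, so nothing is read from this. Their adjusted p-values from edgeR were between 1.5e-05 for Arrb2 and 0.0235 for Kif7.

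Of 42 genes of the primary cilium, the organelle through which Hedgehog signals pass in vertebrate cells, 39 were tested. Of these, 20 fell and 3 rose, a called share of 59.0% beside 50.9% of all genes tested, of which 25.1% fell and 25.9% rose. None was differentially expressed. The median log2 fold change was -0.17, with values between -0.56 and 0.29. Ift27, part of the transport complex that moves cargo along the cilium, had 48.4, 49.0 and 49.9 CPM in Control and 33.4, 33.1 and 33.5 CPM in STZ. Its replicates were tight in both groups, and the log2 fold change was -0.56 (SE 0.06, edgeR adjusted p = 4.1e-10). Bbs2, a subunit of the BBSome, had a log2 fold change of -0.49 (SE 0.08, edgeR adjusted p = 2.6e-06). Rpgrip1l, a protein of the gate at the base of the cilium, had one of -0.47 (SE 0.09, edgeR adjusted p = 1.5e-05). The 3 genes that rose were Cep164, needed to build the cilium (0.29, standard error 0.05), Wdr35 (0.18, 0.05) and Ift80 (0.15, 0.05), both of ciliary transport. Genes that fell outnumbered those that rose under every scaling tried. The numbers were 21 and 3 with DESeq2 size factors and with the upper quartile, and 23 and 2 with library size only. Library size only also lowered the median log2 fold change of all genes, to -0.0391 from -0.0055 in the main fit.

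Of 26 other genes that GLI proteins are known to switch on in one tissue or another, 17 were tested, and 1 fell and 5 rose, a called share of 35.3% beside 50.9% of all genes tested. The median log2 fold change was 0.05. Fst, which encodes the activin antagonist follistatin, had 67.4, 71.5 and 65.1 CPM in Control and 134.4, 135.3 and 134.9 CPM in STZ. The groups were far apart, and its log2 fold change was 0.99 (SE 0.05, edgeR adjusted p = 3e-21). Ccnd2, which encodes cyclin D2, had 231.8, 249.1 and 249.4 CPM in Control and 457.1, 452.0 and 453.5 CPM in STZ, with a log2 fold change of 0.90 (SE 0.04, edgeR adjusted p = 4e-23). Spp1, which encodes osteopontin, had a log2 fold change of 0.36 (SE 0.04, edgeR adjusted p = 1.1e-11). Ccne1, which encodes cyclin E1, was the gene that fell, by 0.23 on the log2 scale (SE 0.06, edgeR adjusted p = 7.2e-04). Genes of this list respond to many other regulators as well. Gli1 and Ptch1 lay lower in STZ-treated cells while most of this wider list did not pass the test or rose.

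**Figure D4:**
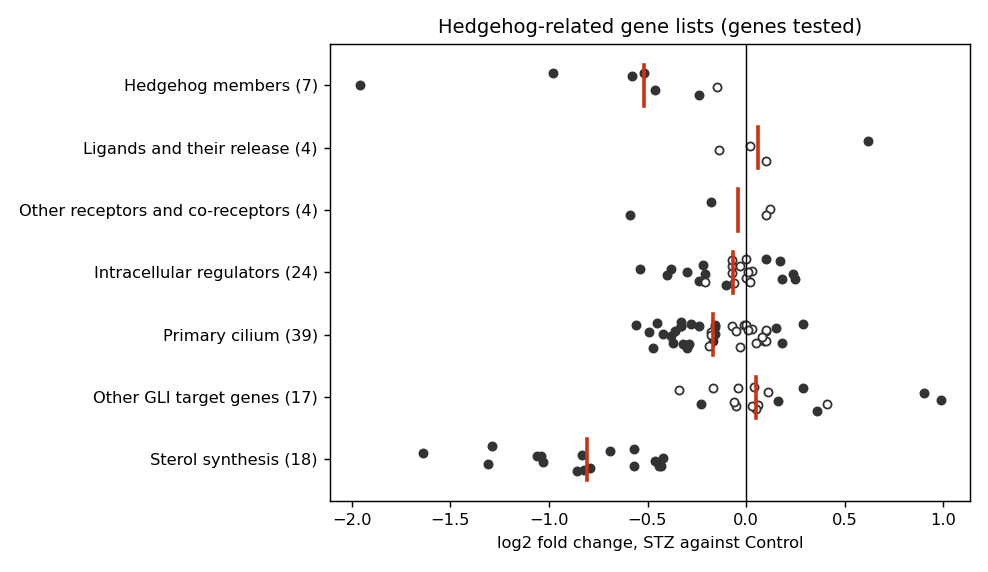
Log2 fold change of each gene tested, STZ against Control, in the Hedgehog members and in 6 related lists, with the number tested in parentheses. Filled points passed the test, open points did not, and the red line is the median of the list, from -0.81 for sterol synthesis and -0.52 for the members to 0.06 for ligands and their release.

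Sterols serve Hedgehog signalling as the lipid on the ligand and as activators of Smo, so the enzymes of sterol synthesis are given beside the members. All 18 tested fell, where 25.1% of all genes tested did. Of the 18, 6 were differentially expressed, where 1.11% of all genes tested were so in this direction. The log2 fold changes were between -1.64 and -0.42, with a median of -0.81, and the fall of this list was known from earlier results of these data. Dhcr7, the last reductase on one branch of cholesterol synthesis, had 111.2, 115.1 and 120.7 CPM in Control and 65.8, 66.1 and 60.0 CPM in STZ. Dhcr7 and the desaturase Sc5d, named for their place late in the pathway and not for their size of change, had log2 fold changes of -0.86 (standard error 0.05) and -0.57 (0.04). Sterols were not measured.

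Gli1 is also a marker of stromal cells, so fibroblast and pericyte markers are given beside it. Their summed level over the 8 genes with a row was 154 to 160 CPM in Control and 100.3 to 114 CPM in STZ. The largest part of this difference came from Col3a1 (mean 53.9 CPM in Control, 21.3 in STZ). All 4 that were tested fell, where 25.1% of all genes tested did, namely Col3a1 (log2 fold change -1.35), Pdgfrb (-0.33), Col1a1 (-0.27) and Acta2 (-0.21), named after their values were seen. From the same list, Pdgfra, Lum, Thy1 and Col1a2, which were not tested, had at most 4 reads in any sample. The 5 epithelial genes with a row had a summed level of 1706 to 1793 CPM in Control and 2285 to 2290 CPM in STZ. Nearly all of it came from Krt8 (mean 1149 CPM in Control, 1604 in STZ) and Tjp1 (612 and 681). Krt8 rose (0.48) and Tjp1 rose (0.15), while Cdh1, at 2.58 and 1.64 CPM, fell (-0.69). The proximal tubule marker Aqp1 fell (-1.25). The part of any of these in the fall of Gli1 was not tested.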

How the data were processed

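RNA from 3 vehicle-treated (Control) and 3 STZ-treated samples was made into stranded mRNA libraries and sequenced in single-end mode. Reads were aligned by the authors to Rnor6 with STAR 2.7.10a, and those mapped uniquely were assigned to genes by featureCounts. The deposited values are raw counts, and the 6 columns were assigned by their labels.

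Counts were scaled by TMM, filtered by filterByExpr and tested by the quasi-likelihood test in edgeR 4.0.16 (R 4.3.3), and p-values were adjusted over the 11870 genes tested (Benjamini-Hochberg). The standard error was computed from the log2 fold change and the F statistic of its test. The steps were also run on simulated counts, in which far fewer genes changed than were called here. That run checks the code and does not bear on the calls given. With 3 samples against 3, an exact permutation test of 1 gene cannot go below p = 0.1, so none is given. Alternatives used other filters, scalings and tests (DESeq2 1.42.0, limma-voom 3.58.1), a replicate block, thinned libraries and each sample left out.

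The members and lists were chosen with earlier results of these data known. All members are named. Of sterol synthesis, genes were fixed by their place in the pathway, and marker genes are named as listed. In the other lists the named genes are the 3 ligands and those differentially expressed, otherwise up to 3 of the largest falls and rises that passed with a mean of at least 50 normalized counts. Listed genes without a row were not analysed here. Values of some single genes are left out of the text, though these genes enter the counts. Gene lengths used for counting were not at hand, so the planned levels per length were not computed. Same-numbered samples had correlations of 0.0339, -0.0337 and 0.105 in their deviations from group means. Whether they were handled together is not stated, and 3 samples per group cannot settle it.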

Additional observations from a re-analysis of the deposited data

How the results depend on the processing

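With an absolute log2 fold change over 1 required as well, 1 member was called in place of 6, and 0 genes in place of 1 of the ligand genes, 2 of the other receptors, 13 of the intracellular regulators, 23 of the primary cilium and 6 of the other GLI targets (edgeR's quasi-likelihood test). The stricter rule itself sets this difference. All other alternatives left each count within 1.5 times of its value. With one sample left out, 5 to 6 members, 9 to 12 intracellular regulators and 19 to 25 cilium genes were called, and 1 ligand gene, 2 receptors and 6 GLI targets throughout. With the replicate block, 6 members and 24 cilium genes were called. The block changed no call among the members.

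The log2 fold changes of the members kept their direction in all 112 refits and their side of the threshold in 102. The exceptions were 7 for Gli2, between -0.56 and -0.30, and 3 for Sufu. On the log2 fold change threshold, Ptch1 changed side with library size only (-1.01). Gli1 was between -2.09 and -1.84. Gli2, with 31 to 56 reads per sample, and the ligands, with at most 7, had few reads.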
